A study of Mus musculus with 8 samples.

Results

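The Hedgehog pathway was examined through 6 of its genes, in a comparison of open chromatin between wild-type and Danforth's short tail mouse embryos. The genes were Ptch1 (gene ID 19206), Gli1 (14632), Gli2 (14633), Gli3 (14634), Hhip (15245) and Foxf1 (15227). Each gene was given a fixed window of the mm9 genome, and every counted region that overlapped a window was taken as a member, which gave 35 of the 26620 regions of the series. By gene, 5 regions lay in the Ptch1 window (chromosome 13, 63.45 to 63.85 Mb), 6 in the Gli1 window (chromosome 10, 126.72 to 126.83 Mb) and 9 in the Gli2 window (chromosome 1, 120.65 to 121.05 Mb). The Gli3 window (chromosome 13, 15.45 to 15.95 Mb) held 10 regions, the Hhip window (chromosome 8, 82.44 to 82.70 Mb) 3 and the Foxf1 window (chromosome 8, 123.50 to 123.70 Mb) 2. Regions are numbered along the chromosome within each window.

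Tailbuds of embryos at embryonic day 9.5 were profiled by ATAC-seq, where the Tn5 transposase cuts and tags open chromatin. The groups were 4 wild-type libraries (WT/WT) and 4 libraries from Sd/Sd embryos, which carry 2 copies of the Danforth's short tail allele and came from a stock kept as Sd/+, all on the outbred CD-1 background, so that the embryos were not genetically uniform beside the mutation. Tailbuds of more than 1 embryo were pooled where material was short, and which libraries were pools is not given. P-values therefore speak only of variation from library to library. Library totals were 2873918 to 4180434 counts over all regions, and the members received 16 to 647 counts per library.

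Hedgehog ligands are secreted in the posterior embryo by the notochord, the floor plate and the hindgut. Ptch1 is the receptor that holds the pathway off until a ligand binds, and Hhip is a membrane protein that binds and sequesters the ligands. The signal ends on the GLI zinc-finger factors, of which Gli2 acts mainly as an activator and Gli3 mainly as a repressor, while Gli1 is itself switched on by the pathway. Ptch1 and Hhip are also targets, which makes them negative feedback, and Foxf1 is a forkhead factor and Hedgehog target of the gut mesoderm. Danforth's short tail is known as a retrotransposon insertion upstream of Ptf1a whose carriers lose the notochord, and the title of the series names Hedgehog signalling as disturbed at the transcript level. The comparison asked whether the chromatin at these genes differed as well.

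Promoter sequences from RefSeq (GRCm38.p6) were matched for 4 of the 6 genes, Ptch1, Gli2, Gli3 and Hhip. The 250 bases before the gene start are shown for both negative-feedback genes, 5′ to 3′ on the strand of the gene, with the GC box (GGGCGG on either strand) in capitals. The Ptch1 sequence is chr13:63565736-63565985 and the Hhip sequence chr8:80058009-80058258, both on the minus strand of GRCm38.p6.
Ptch1: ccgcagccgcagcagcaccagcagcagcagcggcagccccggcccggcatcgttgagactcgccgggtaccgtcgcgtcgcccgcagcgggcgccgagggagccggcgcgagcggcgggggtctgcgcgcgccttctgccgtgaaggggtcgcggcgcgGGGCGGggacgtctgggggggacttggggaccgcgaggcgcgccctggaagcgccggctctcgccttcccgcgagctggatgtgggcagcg
Hhip: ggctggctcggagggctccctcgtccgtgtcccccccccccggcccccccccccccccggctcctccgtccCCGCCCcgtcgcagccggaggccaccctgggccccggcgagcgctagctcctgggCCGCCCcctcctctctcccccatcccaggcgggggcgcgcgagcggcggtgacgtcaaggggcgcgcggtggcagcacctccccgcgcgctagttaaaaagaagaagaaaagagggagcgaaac
The GC box of Ptch1 begins 91 bases before the gene start, and those of Hhip 179 and 124 bases before it. Over the 300 bases of the table, which run 50 bases past the start, the G and C share was 76.3% for Ptch1, 73.7% for Hhip, 71% for Gli3 and 67.3% for Gli2, against a median of 52.7% over 32851 promoters. CpG pairs numbered 47, 30, 39 and 28, against a median of 7. A GC box was present in 4 of 4 member promoters, in 19 of 27 promoters (70.4%) of 23 other pathway genes and in 35.7% of all promoters. The GLI consensus GACCACCCA, searched on both strands without mismatch, was present in 0 of these 4, in 0 of the 27 and in 0.253% of all promoters. TATAAA (11.1% of the 27 and 13.6% of all promoters) and CCAAT (33.3% and 37.4%) were likewise in 0 of the 4. These letters describe the windows searched, and the promoters could not be placed on the mm9 regions, because the sequence table is of another build.

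No region of the 6 windows differed between the genotypes after adjustment. In edgeR, 0 of the 35 regions had an adjusted p under 0.05 (quasi-likelihood, Benjamini-Hochberg across the whole table), where 0.0188% of all regions did, and the smallest adjusted p among the members was 0.586. An unadjusted p under 0.05 was reached by 3 members, 8.57% of the 35, against 6.06% of all regions. These were Ptch1 regions 1 and 5 and Gli2 region 4, all lower in Sd/Sd, a direction in which 3.09% of all regions reached that p, and 0 were higher, against 2.98%. The number was 1 without WT replicate 1 (5.68% of all regions) and 5 without WT replicate 4 (7.07% of all regions), each time with every such region lower in Sd/Sd. The log2 fold changes of Sd/Sd over WT ran from -0.50 to 0.18, with 22 below and 13 above 0 and a median of -0.052, against a median of 0.00057 and 49.9% below 0 over all regions. Since tailbuds were measured in bulk, fewer cells with an open region and a less open region in each cell cannot be told apart.

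For 35 of the 35 members the 95% interval of the change lay within 2-fold in either direction, and for 27 (77.1%) within 1.5-fold, against 98.1% and 73.8% of all regions. The 8 members whose intervals reached past 1.5-fold, through their width, their estimate or both, were Ptch1 regions 2 and 5, Gli2 regions 1 and 4, Gli3 regions 6, 8 and 10, and Foxf1 region 2. Among them, Gli3 regions 6 and 8 and Foxf1 region 2 had means of 8.65, 9.99 and 10.1 CPM (the count scaled to a library total of 1e+06).

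**Figure D1:**
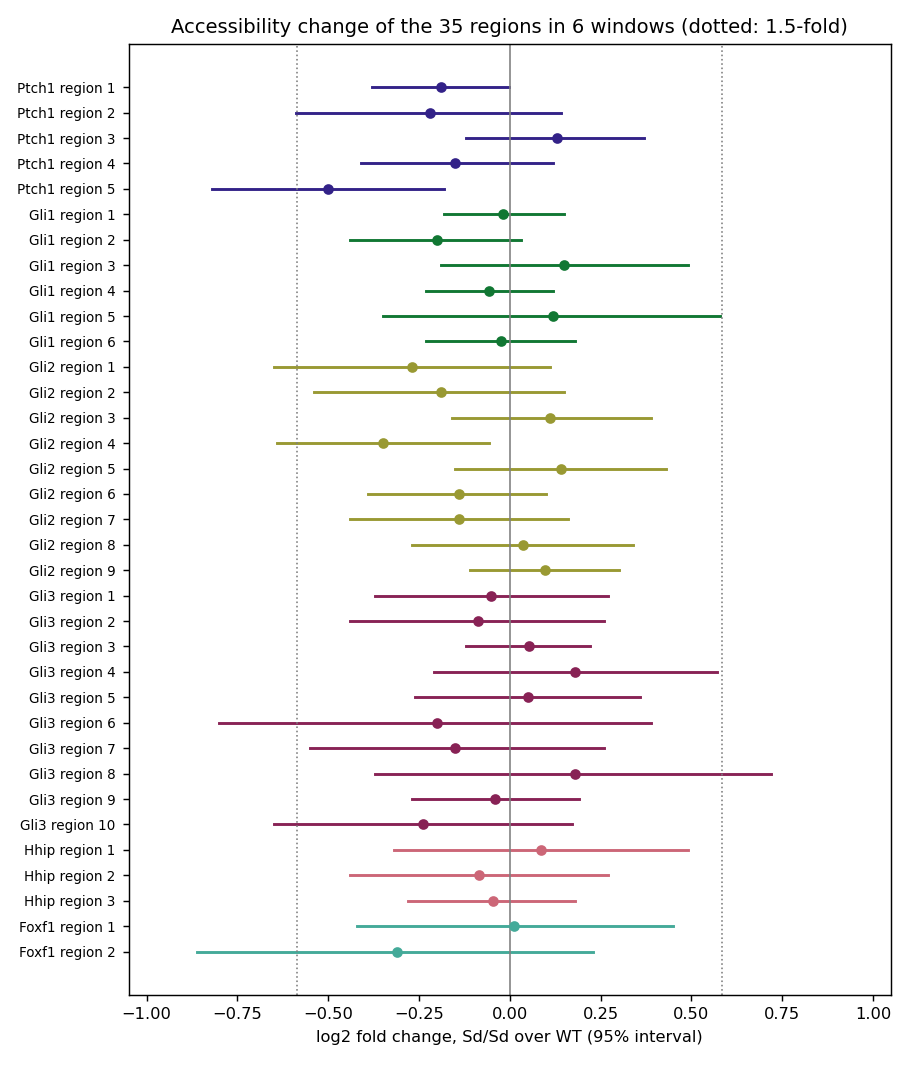
Log2 fold change of Sd/Sd over WT (horizontal axis) for each of the 35 regions, with its 95% interval from the edgeR fit; colours mark the 6 windows and dotted lines a 1.5-fold change. The intervals of Ptch1 regions 1 and 5 and Gli2 region 4 lie below 0, those of the other 32 include 0, and none reaches a 2-fold change.

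Ptch1, the receptor, had a lower mean in Sd/Sd, with libraries of the 2 genotypes overlapping. The counts summed over its 5 regions were 241, 246, 250 and 214 CPM in the WT libraries, in replicate order, and 213, 219, 228 and 191 CPM in the Sd/Sd libraries. WT replicate 4 lay below 2 of the Sd/Sd libraries, so the groups overlapped. Each Sd/Sd library lay below the WT library of the same number, though the numbers were not taken as pairs. The means were 238 ± 16.3 and 213 ± 16 CPM (SD, n = 4 each), a ratio of 0.895 (log2 -0.16, two-sided exact permutation p = 0.0857). This p and those of the other 5 windows are unadjusted, and the smallest that 4 against 4 libraries allow is 0.0286.

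**Figure D2:**
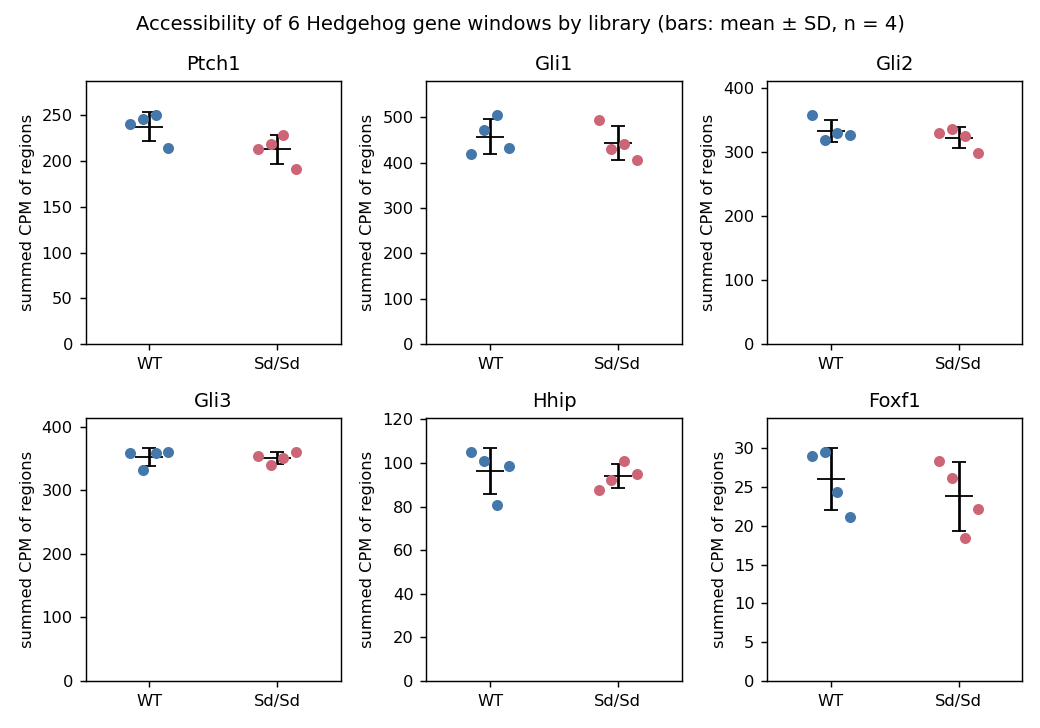
Counts summed over the regions of each gene window, in CPM (vertical axes start at 0), for the 4 WT and 4 Sd/Sd libraries; points are libraries and bars the mean ± SD. The genotypes overlap in all 6 windows, with a ratio of 0.895 for Ptch1 and 0.996 for Gli3.

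Within the Ptch1 window the fold change was below 0 in 4 of the 5 regions and above 0 in 1, whose interval included 0. Region 5, from 63674143 to 63675194, had the smallest unadjusted p of the 35 members. Its levels were 27.5, 38.4, 38.6 and 23.7 CPM in WT replicates 1 to 4 and 21.7, 26.9, 23.8 and 17.9 CPM in Sd/Sd. WT replicates 1, 2 and 3 lay above all 4 Sd/Sd libraries, replicate 1 by less than 1 CPM, whereas WT replicate 4 lay within their range. The means were 32.1 ± 7.61 and 22.6 ± 3.75 CPM, a ratio of 0.706 (log2 fold change -0.50, SE 0.16, 95% interval -0.82 to -0.18, unadjusted p = 0.00246, adjusted p = 0.586 in edgeR). The authors called a peak there in 4 of 4 WT and 2 of 4 Sd/Sd libraries.

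Region 1 of the same window, from 63532069 to 63533233, had the highest CPM of the 5 and lay 131 kb from the next. By RefSeq gene order the coding neighbours of Ptch1 are Fancc and Ercc6l2, so regions of this window may belong to neighbours. Region 1 had 106, 93.4, 97.4 and 82.3 CPM in WT replicates 1 to 4 and 76.9, 88.7, 86.6 and 78.7 CPM in Sd/Sd. Only WT replicate 4 fell within the Sd/Sd range. The log2 fold change was -0.19 (SE 0.096, 95% interval -0.38 to -0.0018, unadjusted p = 0.0479, adjusted p = 0.823 in edgeR). The unadjusted p was above 0.05 in 4 of 7 other fits (DESeq2, limma voom, upper-quartile scaling and edgeR without robust variance) and in 5 of the 8 that left out a library (WT replicates 1, 2 and 3, Sd/Sd replicates 1 and 4). Its peaks, called in 8 of 8 libraries, had fold enrichments over background of 4.33 to 5.55 in the WT libraries and 4.59 to 6.15 in the others, and 6.15 was the highest on any member. Fold enrichments are the values of the authors' peak caller.

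The other 3 regions of the Ptch1 window stood within 10 kb before region 5. Region 3, from 63666679 to 63667874, had 43.5, 47.7, 49.1 and 41.9 CPM in WT and 50, 46.9, 51 and 49.5 CPM in Sd/Sd. It was the only region of the window with a fold change above 0 (log2 0.13, 95% interval -0.12 to 0.37), and the groups overlapped. Region 4, from 63669103 to 63669602, was only 500 bp wide and the densest of the window at 80.8 CPM per kb, above 95.3% of all regions. It had 43.8, 43.4, 43.8 and 38.9 CPM in WT and 43.3, 38.8, 42.5 and 28.7 CPM in Sd/Sd, where replicate 4 stood below the other 7 libraries. Its log2 fold change of -0.15 (95% interval -0.41 to 0.12) became -0.029 without Sd/Sd replicate 4. Region 2, from 63664383 to 63664802, had a log2 fold change of -0.22 (95% interval -0.59 to 0.14). Whether regions 3 and 5 differed in their change was not tested.

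**Figure D3:**
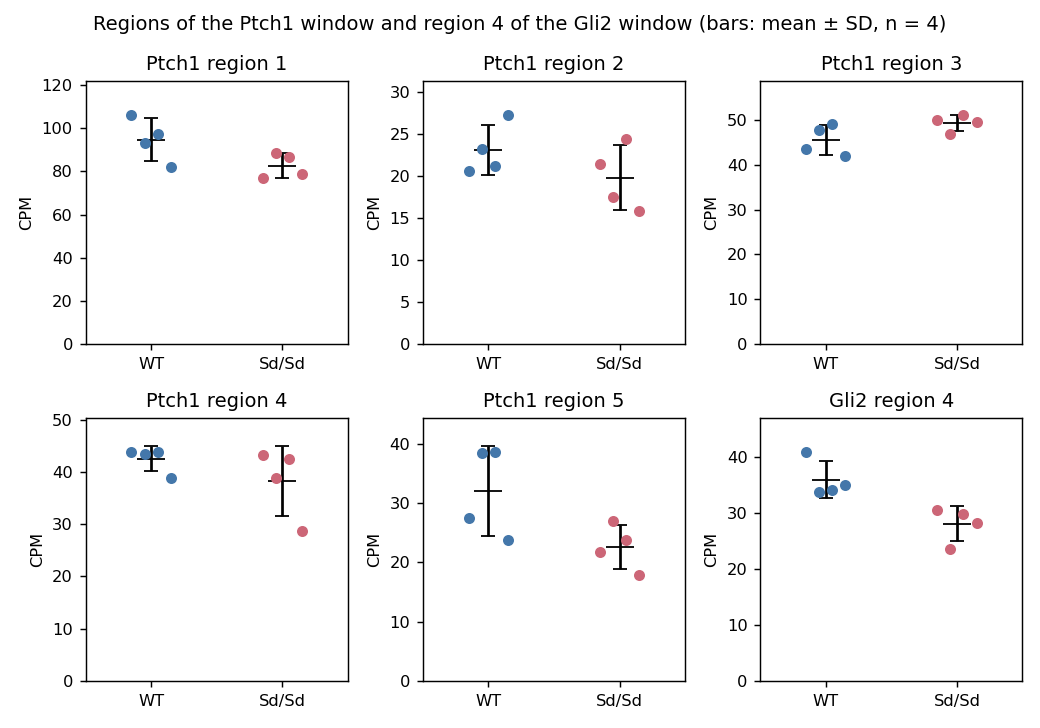
Level in CPM (vertical axes start at 0) of the 5 regions of the Ptch1 window and of region 4 of the Gli2 window, by genotype; points are libraries and bars the mean ± SD of 4. In Gli2 region 4 every Sd/Sd library lies below every WT library, and in each of the 5 Ptch1 regions the genotypes overlap.

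Hhip, which sequesters the ligands, was among the less accessible windows and showed no difference beyond the spread. Its 3 regions summed to 105, 101, 80.7 and 98.4 CPM in WT and 87.5, 92.2, 101 and 95 CPM in Sd/Sd. All 4 Sd/Sd libraries lay inside the WT range. The ratio was 0.977 (two-sided exact permutation p = 0.8). Region 3, from 82581027 to 82582626, held most of this signal in each group, with 56.3 ± 7.20 CPM in WT and 54.3 ± 6.20 CPM in Sd/Sd (log2 fold change -0.047, 95% interval -0.28 to 0.18). It carried a peak in 8 of 8 libraries, with fold enrichments of 2.91 to 3.29. Regions 1 (82459260 to 82460096) and 2 (82555851 to 82557088) had log2 fold changes of 0.087 and -0.085. Both had low counts for their width, at 20.7 and 18.2 CPM per kb, levels above only 7.67% and 2.63% of all regions.

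Gli1, the GLI factor that is itself a target, lay in the most crowded window, with 5.45 regions per 100 kb against 1 to 2.25 in the other 5. By RefSeq gene order its neighbours are Arhgap9 and Inhbe, so regions of this window may belong to neighbours. Its 6 regions summed to 420, 471, 504 and 432 CPM in WT and 494, 430, 441 and 405 CPM in Sd/Sd. The groups overlapped over most of their range, and the ratio was 0.968 (two-sided exact permutation p = 0.6).

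The highest CPM of any member, not scaled to width, was that of Gli1 region 1, from 126725683 to 126728395 (2713 bp), with 160 ± 7.94 CPM in WT and 158 ± 16.4 CPM in Sd/Sd (log2 fold change -0.018, 95% interval -0.18 to 0.15). Per kb it had 58.6 CPM, below Gli3 region 3 and Ptch1 regions 1 and 4. Region 4, from 126775951 to 126779618, was the widest at 3668 bp and had a log2 fold change of -0.056 (95% interval -0.23 to 0.12). Both intervals lay within 1.2-fold of no change. Region 2, from 126748230 to 126749683, had 53.3, 53.3, 73.4 and 49.2 CPM in WT and 45.8, 45.6, 60.3 and 45.9 CPM in Sd/Sd. In each genotype replicate 3 stood above the other libraries, and apart from it the 3 WT values exceeded the 3 Sd/Sd values. The log2 fold change was -0.20 (95% interval -0.44 to 0.031, adjusted p = 0.86 in edgeR) and ran from -0.31 to -0.07 with a library left out.

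Peak calls at Gli1 differed in number more than the counts did. The authors called 6, 5, 5 and 5 peaks in the window in the WT libraries and 8, 6, 7 and 7 in the Sd/Sd libraries. Regions 1 and 4 each held up to 2 peaks in a single library, so these are numbers of peaks and not of separate sites. The mean difference was 1.75 peaks (two-sided exact permutation p = 0.0571), and the groups met at 6 peaks. With a library left out the exact permutation p ran from 0.0286 to 0.0857, and it was under 0.05 only without Sd/Sd replicate 2. Over the genome the same libraries carried 18682 to 24664 peaks (WT) and 21306 to 30387 peaks (Sd/Sd). Scaled to equal peak numbers, the difference at Gli1 was 0.77 (exact permutation p = 0.2), and among peaks of q at most 1e-05 it was -1 (exact permutation p = 0.371). Region 3, from 126763066 to 126763976, had a peak in 0 of 4 WT and 3 of 4 Sd/Sd libraries. Its counts were 16.8, 24.5, 26.8 and 23.1 CPM in WT against 25.6, 22.3, 26.2 and 25.8 CPM in Sd/Sd. The levels overlapped (log2 fold change 0.15, 95% interval -0.19 to 0.49).

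Gli2, the main activator, held the only 2 members whose genotypes did not overlap. Such separation was seen in 5.71% of the members and in 3.2% of all regions, and in 1.6% with Sd/Sd below WT. Region 4, from 120797799 to 120799097, had 40.9, 33.8, 34.1 and 35.1 CPM in WT and 30.6, 23.6, 29.9 and 28.2 CPM in Sd/Sd. The log2 fold change was -0.35 (SE 0.15, 95% interval -0.64 to -0.056, unadjusted p = 0.0198, adjusted p = 0.789 in edgeR), and the unadjusted p was above 0.05 without WT replicate 1 or Sd/Sd replicate 2. Peaks were called there in 2 of 4 WT and 3 of 4 Sd/Sd libraries, the reverse order of the counts. Region 1, from 120656181 to 120657209, had 24.9, 22.8, 19.5 and 19.3 CPM in WT and 18.3, 18.4, 16.9 and 17.9 CPM in Sd/Sd. The gap between the groups was about 1 CPM, and the log2 fold change was -0.27 (95% interval -0.65 to 0.11, adjusted p = 0.884 in edgeR).

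The most accessible region of the Gli2 window pointed the other way. Region 9, from 120949473 to 120950932, had 67.2 ± 8.29 CPM in WT and 71.9 ± 3.18 CPM in Sd/Sd (log2 fold change 0.098, 95% interval -0.11 to 0.30). The remaining 6 regions had log2 fold changes from -0.19 to 0.14. Over the whole window the sums were 357, 318, 330 and 326 CPM in WT and 329, 335, 325 and 298 CPM in Sd/Sd. The groups overlapped, with a ratio of 0.966 (log2 -0.05, two-sided exact permutation p = 0.457), and the log2 ratio ran from -0.072 to -0.014 with a library left out.

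Gli3, the main repressor, was the window closest to equality. Its 10 regions summed to 359, 332, 358 and 360 CPM in WT and 354, 339, 350 and 360 CPM in Sd/Sd, a ratio of 0.996 (two-sided exact permutation p = 0.83). The Sd/Sd libraries lay inside the WT range to the precision given. Region 3, from 15554561 to 15556342, held much of this signal, with 144 ± 16.6 CPM in WT and 149 ± 11.8 CPM in Sd/Sd (log2 fold change 0.053, 95% interval -0.12 to 0.22). At 82.3 CPM per kb it was the densest of the 35 members, above 95.6% of all regions.

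Some weak Gli3 regions differed in their peak calls while their counts overlapped. Region 4, from 15595826 to 15596718, had a peak in 0 of 4 WT and 3 of 4 Sd/Sd libraries. Its levels were 16.5, 17.9, 17.7 and 17.9 CPM in WT and 24.2, 15.5, 20.5 and 18.4 CPM in Sd/Sd. The Sd/Sd libraries lay on both sides of the WT values (log2 fold change 0.18, 95% interval -0.21 to 0.57). Region 8, from 15756637 to 15756978, had a peak in 0 of 4 WT and 2 of 4 Sd/Sd libraries, at 9.42 ± 1.54 and 10.6 ± 2.63 CPM. Region 10, from 15854521 to 15855134, had a peak in 2 WT libraries and 1 Sd/Sd library and a log2 fold change of -0.24 (95% interval -0.65 to 0.17; -0.38 to -0.089 with a library left out). The other 6 regions had log2 fold changes from -0.20 to 0.049.

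Foxf1, the gut mesoderm target, was the least accessible window. Its 2 regions summed to 29.0, 29.5, 24.4 and 21.1 CPM in WT and 28.3, 26.2, 18.4 and 22.2 CPM in Sd/Sd, a ratio of 0.916 within the spread (log2 -0.13, two-sided exact permutation p = 0.514). With a library left out the log2 ratio ran from -0.22 to -0.021. Region 1, from 123607708 to 123608445, had 16.8, 20.9, 12.2 and 9.37 CPM in WT and 15.6, 16.5, 13.3 and 14.1 CPM in Sd/Sd. The Sd/Sd values lay inside the WT range, and the log2 fold change was 0.013 (95% interval -0.42 to 0.45). It carried a peak in 1 of 4 libraries of each genotype. Region 2, from 123632109 to 123632446, had 12.2, 8.61, 12.2 and 11.7 CPM in WT and 12.8, 9.71, 5.13 and 8.13 CPM in Sd/Sd (log2 fold change -0.31, 95% interval -0.86 to 0.23). This interval includes a 1.5-fold lower level, and the fold change ran from -0.54 to -0.13 with a library left out. By gene order the nearest coding neighbours are Irf8 and Mthfsd, so these regions too are assigned by window only.

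Per kilobase of counted region, the windows ranked Ptch1, Gli1, Gli3, Gli2, Hhip and Foxf1. The mean levels over the 8 libraries were 52.0 CPM per kb for Ptch1, 42.8 for Gli1, 39.1 for Gli3, 31.1 for Gli2, 25.9 for Hhip and 23.1 for Foxf1, and the median single region of the series had 32.9. Of the neighbours in this order, only Gli3 and Gli2 had ranges that did not overlap, with at least 37.0 CPM per kb for Gli3 and at most 34.0 for Gli2. Ptch1 lay above Gli1 in 8 of 8 libraries, Gli1 above Gli3 in 7, Gli2 above Hhip in 8 and Hhip above Foxf1 in 6. The 5 regions of Ptch1, densest in counts, covered 1.08% of their window, whereas the regions of Gli1 covered 9.55%. The members as a whole were close to the series, with a median width of 1032 bp against 874 bp and a median of 31.5 CPM per kb against 32.9.

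Across the 8 libraries the correlations between window sums took both signs, and none was tested. Among the 15 pairs of window sums (log2), the highest Pearson's r was 0.59, between Ptch1 and Gli2, and the lowest -0.65, between Gli1 and Hhip. These values describe 8 libraries that share the library total as denominator.

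Peak calls on the members differed between the genotypes in both directions. Of the 35 regions, 13 (37.1%) had a peak in all 8 libraries, against 41.3% of all regions. More Sd/Sd than WT libraries had a peak at 8 regions, fewer at 8, and the numbers were equal at 19. At 3 regions a peak was called in 0 of 4 WT libraries, and at 0 regions in 0 of 4 Sd/Sd libraries. The shares of all regions in these classes were not counted, so these numbers are a description only. The number of peaks per library in the other 5 windows differed by -0.50 (Ptch1), 1.75 (Gli2), 0.25 (Gli3), 0.25 (Hhip) and 0 (Foxf1) peaks between Sd/Sd and WT means, with exact permutation p of 0.2 or more. Scaled to equal peak numbers, the difference was -1.17 for Ptch1 (exact permutation p = 0.171) and 0.25 for Gli2 (exact permutation p = 0.743). Merged over libraries the windows held 56 peak intervals, and 21 of them touched no counted region. Of these, 20 rested on 1 library, 14 in Sd/Sd and 6 in WT. That 70% lay in Sd/Sd compares with 63.1% of all intervals of the series that rested on 1 library. The latter were taken whether or not they touched a counted region. The Sd/Sd libraries carried more peaks on average. The other uncounted interval, at 63629785 to 63630488 in the Ptch1 window, had a peak in WT replicate 4 (fold enrichment 3.86, q = 0.00015) and Sd/Sd replicate 1 (2.7, q = 0.071).

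**Figure D4:**
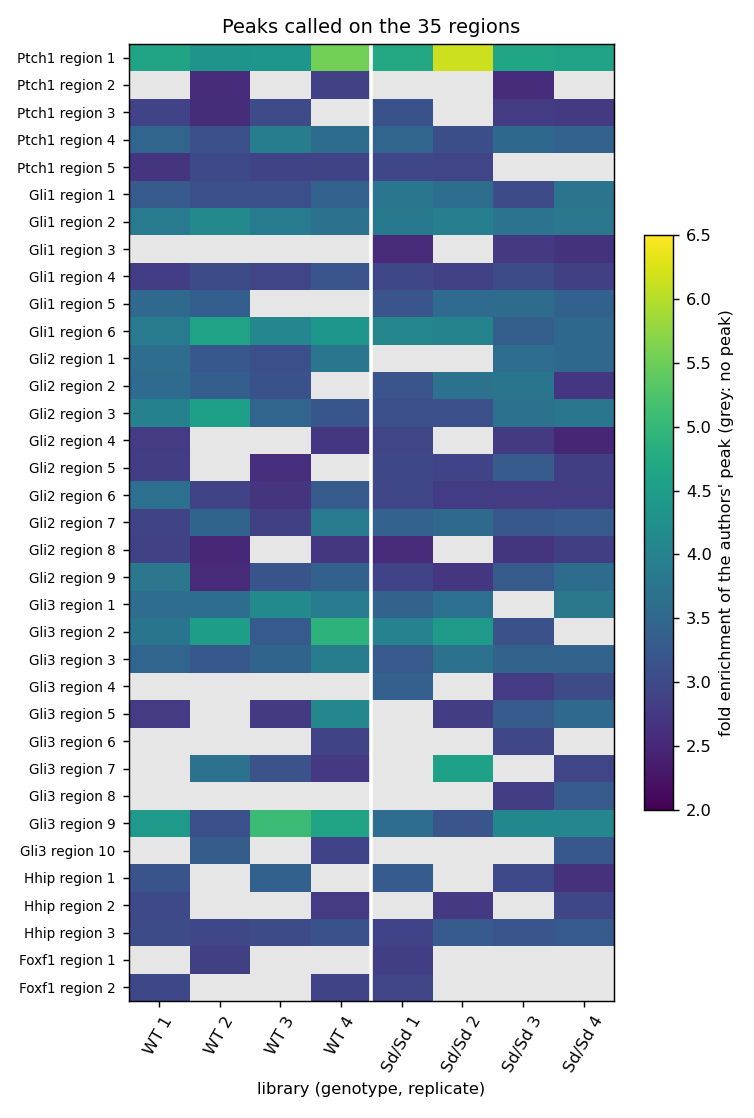
Fold enrichment of the authors' broad peaks (colour) on each of the 35 regions (rows) in the 8 libraries (columns); grey marks a region without a peak in that library, and the white line separates WT from Sd/Sd. Peaks in all 8 libraries are seen at 13 regions, and Gli1 region 3, Gli3 region 4 and Gli3 region 8 have peaks in Sd/Sd libraries and in 0 of 4 WT libraries.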

How the data were processed

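Per the submitters' processing notes, reads were handled on mm9 with BWA 0.7.15-r1140, MACS2 2.1.1.20160309, bedtools 2.26.0, bcl2fastq 2.17.1.14, CASAVA, SAMtools and Picard (settings, the unit counted and any Tn5 shift: not given in the sources used here). Whole-number counts per library over 1 shared region set were deposited by the authors without normalization. The authors also deposited broad peaks per library with the caller's score, fold enrichment (a ratio) and −log10 p-value and q-value.

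CPM are counts over the library total. Counts were tested with edgeR 4.0.16 (quasi-likelihood, TMM factors 0.9887 to 1.006, robust) in R 4.3.3 on all 26620 regions and 8 libraries, with genotype as the only term, and tested on simulated data. The common biological variation was 11.5%. Window sums and peak numbers were compared with exact permutation tests (70 arrangements, Python 3.11.15).

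The members, windows and lists were chosen with earlier results of these data known. Regions named by rule were, in each window, the highest by CPM and by counts per kb, the 2 of smallest p and those of unadjusted p under 0.05. Some of them are given by library, and the rest by mean and SD or by fold change. Other regions are described by range or were added after their values were seen. Alternatives were DESeq2 1.42.0, limma 3.58.1 (voom), other scalings, a filter, a replicate block, stricter peaks and leaving out each library. Peak numbers scaled to equal totals were added after the data were seen. Gene coordinates, exons, other pathway genes and tissue markers were not placed on the regions, since the annotation used here is of GRCm38.p6.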

Additional observations from a re-analysis of the deposited data

Results flagged for a closer look

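In 46 groups of 4 libraries, covering the 17 regions named by the rule and the 6 window sums in each genotype, a single library stood well apart from its group in 6. By chance this is found in about 1 of 20 groups. Gli1 region 2 showed this in both genotypes, with 73.4 CPM in WT replicate 3 and 60.3 CPM in Sd/Sd replicate 3, each above the other 3 libraries. WT replicate 2 stood low at Foxf1 region 2, with 8.61 CPM. The same library was low for the Gli3 window sum, with 332 CPM against 358 to 360. WT replicate 4 stood low at Ptch1 region 4, with 38.9 CPM. At Gli3 region 4, WT replicate 1 had 16.5 CPM against 17.7 to 17.9, a gap that is narrow in size.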

How the results depend on the processing

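The count of members past the adjusted threshold was 0 under each of the 7 other fits and the 8 that left out a library. The count at an unadjusted p under 0.05 was 2 or 3 under the other fits (3 with the replicate block), against 4.42% to 6.88% of all regions, and 1 to 5 with a library left out, against 4.82% to 7.7%. The deviations of same-numbered libraries had correlations from -0.000739 to 0.0935, against -0.048 to 0.0201 for libraries of different numbers. The highest, 0.0935, was between WT replicate 4 and Sd/Sd replicate 4, and what those libraries share was not tested. The main tests did not take the numbers as pairs. With the replicate block the Ptch1 window sum kept a log2 ratio of -0.16 (exact p = 0.125, the smallest such pairs allow).

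With a library left out, the log2 ratio of the window sums ran from -0.21 to -0.11 for Ptch1, -0.10 to 0.0042 for Gli1, -0.072 to -0.014 for Gli2, -0.033 to 0.0099 for Gli3, -0.11 to 0.0081 for Hhip and -0.22 to -0.021 for Foxf1. TMM scaling gave 0.00034 for Gli3. Near 0, these signs carry no direction. Peak differences ran from 1.42 to 2.08 for Gli1, -0.33 to 1.0 for Gli3 and -0.25 to 1.08 for Hhip. With peaks of q at most 1e-05 they were -1 for Gli1 and -0.25 for Gli2, and scaled to equal peak numbers -0.86 for Gli3 and -0.13 for Hhip. The cause was not tested. Of the named regions, 5 changed sign with a library left out, running from -0.035 to 0.22 (Hhip region 1), -0.13 to 0.016 (Hhip region 3), -0.16 to 0.22 (Foxf1 region 1), -0.086 to 0.031 (Gli1 region 1) and -0.024 to 0.097 (Gli3 region 3).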
